A study of Mus musculus with 93 samples.

Results

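The odorant receptor genes of mouse chromosome 9 were described in single cells of the olfactory epithelium, from dividing progenitors to mature sensory neurons. Members were all genes on chromosome 9 of the deposited annotation whose symbol begins with Olfr, the mouse name for odorant receptor genes. They numbered 131 of 1112 Olfr symbols (11.8%), and where a symbol had more than 1 entry the highest value was used. Messenger RNA of single cells, picked by hand from dissociated olfactory epithelium of C57BL/6 mice, was primed with oligo(dT), amplified by PCR and sequenced. By label, 11 cells were Progenitor, 9 were Precursor, 27 were Early Immature Neuron, 13 were Late Immature Neuron and 25 were Mature Neuron cells, with no genotype or treatment besides the strain that all share. The 8 remaining libraries were technical repeats of 8 of the 85 cells and served only for comparison. The labels name no animal and no age and do not say how stages were set, so each stage counts as 1 sample, every SD is a spread over cells, and no test between stages was made.

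Each mature olfactory sensory neuron is known to express a single allele of a single odorant receptor gene, drawn from a large repertoire of genes in clusters on many chromosomes. The receptors are G protein-coupled receptors of the cilia, where they signal through the G protein subunit Gnal and the adenylyl cyclase Adcy3 to a cyclic nucleotide-gated channel with the subunit Cnga2. Immature neurons carry the growth cone gene Gap43 and the G protein subunit gene Gng8, and mature neurons carry Omp, the olfactory marker protein. Homeodomain proteins such as Lhx2 and Emx2 and the Ebf factors bind receptor promoters and enhancers, and a receptor also tends to be used in a given zone of the epithelium.

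Expression is given as FPKM, fragments per kilobase of transcript scaled to the mapped fragments of the library, so that levels of different genes are compared per length. The tables hold no counts, but low values are whole multiples of what 1 fragment is worth. By that step, each unit of FPKM came to 0.616 to 10.7 fragments per kilobase (median 6.13 over 85 cells), with stage medians of 6.69, 7.46, 6.14, 5.53 and 4.58 from Progenitor to Mature Neuron. Fragments are PCR copies, not independent molecules, and all intervals below are exact Clopper-Pearson 95% intervals that cover counting error only. The listed stage markers followed the labels: the summed FPKM of 6 progenitor and precursor genes had medians of 370.7, 207, 0.906, 0.192 and 0.0561 over the 5 stages, and that of 7 mature neuron genes had medians of 0.815, 18.4, 341.9, 10267 and 15438. They may have served to set the stages. Cell names carry numbers in 4 ranges, namely 6 cells in D29 to D97, 19 cells in D168 to D205, 23 cells in D213 to D274 and 37 cells in D316 to D434, and only the last holds all 5 stages, so that range and stage cannot be fully told apart.

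The chromosome 9 receptors lay in 2 clusters 17.4 Mb apart on mm10. The first, chromosome 9 from 18754656 to 20336094, held 36 members over 1.58 Mb, from Olfr24 to Olfr18. The second, from 37711143 to 40188094, held 95 members over 2.48 Mb, from Olfr160 to Olfr986. Neighbouring starts were a median of 24.96 kb apart. In the first cluster 5 members reached an FPKM of 1 in a cell (13.9%) and in the second 16 (16.8%). A break at any gap over 200 kb, in place of 1 Mb, gave the same number of clusters. The plot of highest values along the clusters shows that all 5 detected genes of the smaller cluster lay beyond its midpoint, as did many genes that were not detected. These places are not independent. Olfr857 and Olfr58 reached an FPKM of 1 only in cell D192, beside Olfr860, and Olfr870 only in cell D240, beside Olfr871.

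**Figure D1:**
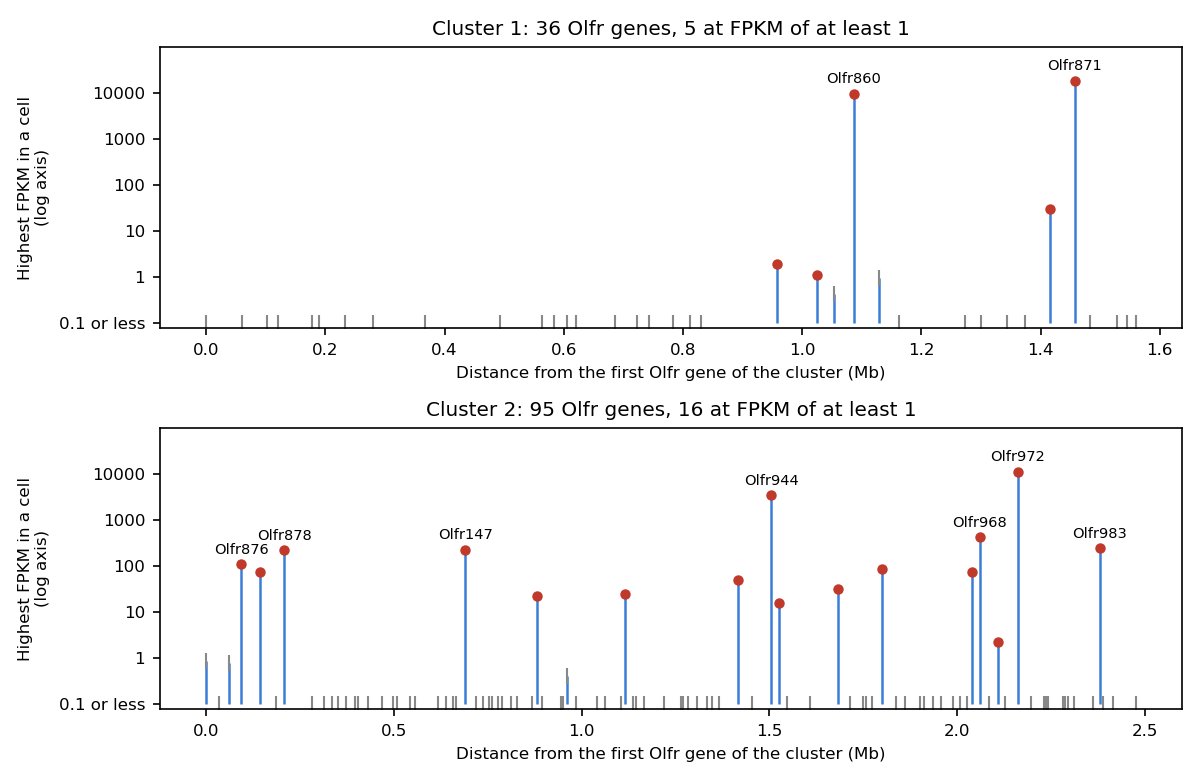
Highest FPKM of each chromosome 9 Olfr gene in a single cell (log axis) against its distance from the first gene of its cluster in Mb, for 36 and 95 genes; red points are genes at an FPKM of at least 1 and grey ticks the others. The 9 named genes reached 100, and both genes of the smaller cluster that did so, Olfr860 and Olfr871, lay beyond its midpoint, as did many genes that were not detected.

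The known regulators bind upstream of receptor genes, so upstream windows from RefSeq (GRCm38.p6, the same sequence as mm10) are shown for 4 members. Olfr860 had the most fragments in a single cell, Olfr876 and Olfr877 were found together in a cell, and Olfr983 was found in both libraries of a cell. Each sequence is the 250 bases before the annotated start, 5′ to 3′ on the strand of the gene, and capitals mark matches to TAATTA, a homeodomain core, or CCCNNGGG, an Ebf type core (both read the same on both strands).
Olfr860 promoter, minus strand, chr9:19849748-19849997: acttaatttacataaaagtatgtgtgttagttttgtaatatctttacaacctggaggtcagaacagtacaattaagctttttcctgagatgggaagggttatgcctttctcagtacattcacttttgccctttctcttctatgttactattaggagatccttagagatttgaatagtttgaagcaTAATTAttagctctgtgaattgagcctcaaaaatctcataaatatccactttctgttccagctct
Olfr876 promoter, plus strand, chr9:37803639-37803888: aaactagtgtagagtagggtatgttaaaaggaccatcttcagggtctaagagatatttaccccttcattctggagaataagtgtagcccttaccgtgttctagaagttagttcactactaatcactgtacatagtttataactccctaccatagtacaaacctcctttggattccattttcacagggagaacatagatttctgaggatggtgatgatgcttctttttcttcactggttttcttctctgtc
Olfr877 promoter, plus strand, chr9:37854570-37854819: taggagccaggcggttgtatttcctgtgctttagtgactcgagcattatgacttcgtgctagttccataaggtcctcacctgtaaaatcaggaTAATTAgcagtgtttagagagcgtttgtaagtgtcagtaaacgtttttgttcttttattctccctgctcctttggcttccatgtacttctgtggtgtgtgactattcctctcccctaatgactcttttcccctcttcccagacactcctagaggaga
Olfr983 promoter, minus strand, chr9:40093559-40093808: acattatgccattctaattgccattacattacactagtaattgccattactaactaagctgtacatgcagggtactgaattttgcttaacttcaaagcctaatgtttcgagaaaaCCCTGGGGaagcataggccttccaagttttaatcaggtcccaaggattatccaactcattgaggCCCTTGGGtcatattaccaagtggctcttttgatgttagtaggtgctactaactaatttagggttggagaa
TAATTA began at position -65 from the start of Olfr860 and at -157 from that of Olfr877, and neither core was found upstream of Olfr876. Olfr983 had CCCNNGGG in both marked places. In windows of the 250 bases before the start, TAATTA occurred in 26 of 109 windows of 108 members (23.9%), in 18.0% of all Olfr windows and in 4.84% of the windows of all genes. Among the 19 of 21 members at an FPKM of at least 1 that had a window, 5 held TAATTA (26.3%), a share near that of all chromosome 9 members. CCCNNGGG occurred in 2 of the 109 windows (1.83%), those of Olfr147 and Olfr983, against 2.74% of Olfr windows and 11.8% of all windows. Of the 109 windows 63 have their start at the annotated start codon, among them those of Olfr870, Olfr968, Olfr970 and Olfr972, so the window may miss the true promoter there.

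Most chromosome 9 receptors were not seen in any of the 85 cells. In the first libraries 105 members were listed at 0 throughout, 5 stayed between 0 and 1, and 21 reached an FPKM of 1 (16.0%), beside 18% of all Olfr symbols. At an FPKM of 10 the count was 18 (13.7%, all Olfr symbols 14.5%), at 100 it was 9 (6.87%, all 8.54%), and 4 reached 1000. The chromosome 9 shares were thus near the background at each level. The largest Olfr groups, those of chromosomes 2 and 7, had 48 of 286 symbols (16.8%) and 21 of 239 (8.79%) at an FPKM of 1, and the 84 symbols of chromosome 11 had 29 (34.5%). No test between chromosomes was made, since a few cells decide each count.

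Whether a member was seen moved with the kind of its entry. The deposited annotation holds 137 entries for the 131 members, of which 23 are assembled transcripts with identifiers that begin with XLOC. Of 17 members with assembled entries only, 13 reached an FPKM of 1 (76.5%), against 8 of 114 members with annotated entries only (7.02%). Over all Olfr symbols the shares were 87.8% of 123 and 8.39% of 977. Which libraries the assembly used is not given in the sources used here, and the part of the entry kind in the counts was not tested. For 3 members at an FPKM of 1 the value used came from an assembled piece with no strand, downstream of the main entry. Olfr876 stood at 110 in a 586-base piece (37806333 to 37806918) and at 62.8 in its main entry in the same cell. Olfr878 stood at 226 in a 1044-base piece (37921432 to 37922475) and at 0 in the main entry. Olfr951 stood at 32.7 in a 252-base piece (39395121 to 39395372), from only about 6.23 fragments, and at 0 in the main entry. Olfr860 had a plus-strand entry (19841408 to 19845978) at 112 that overlaps its minus-strand entry (19845011 to 19849751) at 9610.

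Chromosome 9 receptors were found in cells of 4 stages and reached high levels from the Early Immature Neuron stage on. At least 1 member at an FPKM of 1 was found in 0 of 11 Progenitor cells (0%, interval 0 to 28.5) and in 3 of 9 Precursor cells (33.3%, interval 7.49 to 70.1). Such a member was found in 13 of 27 Early Immature cells (48.1%, 28.7 to 68.1), in 5 of 13 Late Immature cells (38.5%, 13.9 to 68.4) and in 6 of 25 Mature cells (24%, 9.36 to 45.1). The 6 Mature cells were all the Mature cells numbered D213 to D245, and no other Mature cell held a member at 1. The 5 Late Immature cells were likewise all those numbered D199 to D234. The part of cell number in these shares was not tested. With annotated entries only, the shares were 11.1% of Early Immature, 23.1% of Late Immature and 24% of Mature cells, so the order of these 3 stages turned with the kind of entry. At an FPKM of 10 the counts were 0 for Precursor, 10 for Early Immature, 3 for Late Immature and 5 for Mature cells, and at 100 they were 0, 4, 1 and 3. The Precursor cells thus held low values only.

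The number of different members at an FPKM of 1 was 0 for Progenitor, 3 for Precursor (2.29% of 131), 16 for Early Immature (12.2%), 5 for Late Immature (3.82%) and 7 for Mature cells (5.34%). Over all Olfr symbols the shares were 0.45%, 1.35%, 11.2%, 6.03% and 7.01%. The summed chromosome 9 FPKM of a cell had a median of 0 for Progenitor (highest 0.298), 0.370 for Precursor (highest 16.6), 0.417 for Early Immature (highest 9614), 0 for Late Immature (highest 307) and 0 for Mature cells (highest 18439). On the scale log2(sum + 1) the means were 0.06 ± 0.14 (SD, n = 11 cells), 1.35 ± 1.55 (n = 9), 3.15 ± 3.85 (n = 27), 2.01 ± 2.84 (n = 13) and 1.96 ± 4.14 (n = 25). The spread over cells exceeded the mean in every stage, since a few cells held nearly all of the signal. With annotated entries only, the last 3 means were 0.31, 1.31 and 1.96, again in the opposite order. Within D316 to D434 alone, members at an FPKM of 1 were found in 0 of 3 Progenitor, 0 of 5 Precursor, 5 of 19 Early Immature, 0 of 6 Late Immature and 0 of 4 Mature cells. With cells at an FPKM of at least 100 for Cyp2g1, a gene of sustentacular support cells, or for the neutrophil genes S100a8 or S100a9 left out (14 cells, 8 of them Progenitor), the counts were 0 of 3, 3 of 8, 12 of 26, 4 of 12 and 6 of 22. Members detected then numbered 20.

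**Figure D2:**
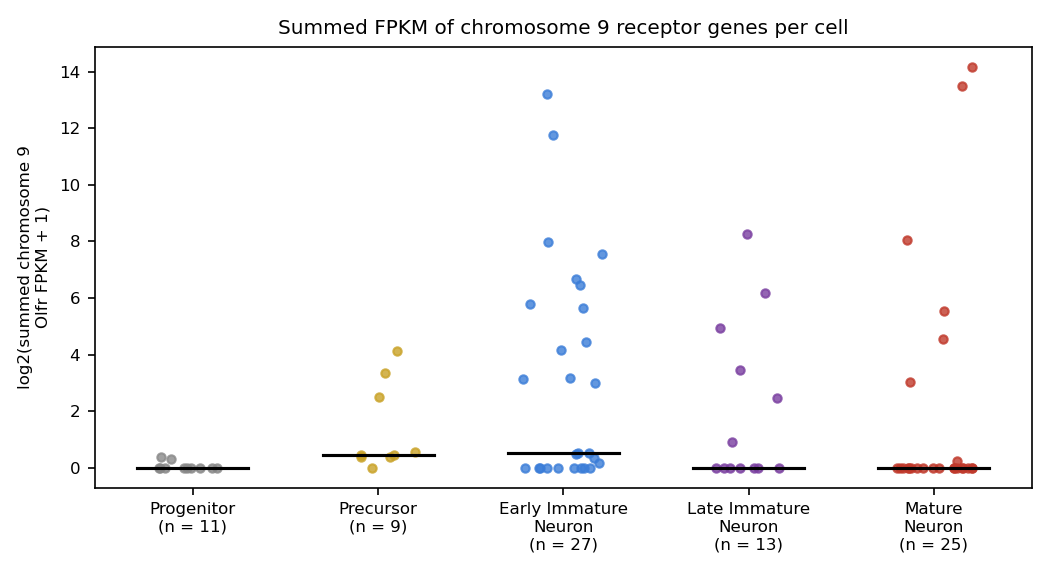
Summed FPKM of the 131 chromosome 9 Olfr genes per cell as log2(sum + 1), by stage (11, 9, 27, 13 and 25 cells); each point is a cell and the black line the stage median. Most cells sit at or near 0, and 2 Mature and 2 Early Immature Neuron cells stand highest, with sums up to 18439 and 9614 FPKM.

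In 61 cells the top receptor reached an FPKM of 100, and in 5 of these it lay on chromosome 9 (8.20%, interval 2.72 to 18.1). They were 3 of 24 such Early Immature, 0 of 12 Late Immature and 2 of 24 Mature cells. A different gene led in each, so 5 members led a cell (3.82% of 131), beside 5.4% of all Olfr symbols. The genes were Olfr860 and Olfr871 of the first cluster and Olfr876, Olfr944 and Olfr972 of the second.

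Olfr871 (20212207 to 20213353, plus strand) stood at 18382 in the Mature Neuron cell D240, the highest chromosome 9 value, from about 21127 fragments. It made up 99.1% of the Olfr FPKM of that cell, and the second receptor, Olfr1140 of another chromosome, stood at 47.5. D240 had Omp at 8193, Gnal at 531, Adcy3 at 166 and Cnga2 at 771, while Gap43 and Gng8 were listed at 0. It also held Cbr2, a sustentacular cell gene, at 381, whose part in these values was not tested.

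Olfr972 (39873277 to 39874221, plus strand) stood at 11159 in the Mature Neuron cell D223, from about 4950 fragments, and made up 96.2% of its Olfr FPKM. The second receptor of D223 was also on chromosome 9: Olfr968 (39771772 to 39772798, minus strand) stood at 422, lower by a ratio of 26.4. Omp stood at 3017, Gnal at 1146, Cnga2 at 1423 and Gap43 at 0 in this cell.

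Olfr860 stood at 9610 in the Early Immature Neuron cell D192, from about 98362 fragments, the most of any member, and held 99.9% of the Olfr FPKM. The second receptor, Olfr291, stood at 3.42. D192 had both Gap43 at 124 and Omp at 4097, with Gnal at 507 and Cnga2 at 257. It thus carried some genes of immature and of mature neurons, but not all, since Gng8 stood at 0.445 and Adcy3 at 0.0385. For comparison, Omp in the 21 Early Immature Neuron cells led by receptors of other chromosomes ranged from 0 to 6224 with a median of 40.8.

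Olfr944 (39216272 to 39218354, plus strand) stood at 3465 in the Early Immature Neuron cell D331, from about 14858 fragments, with 99.1% of the Olfr FPKM. Its second receptor was Olfr27 (39128167 to 39145072), also of chromosome 9, at 22.5. D331 had Gap43 at 1941 and Gng8 at 990, the highest values of both among the chromosome 9 led cells. Omp and Adcy3 were listed at 0 and Gnal stood at 0.262, but Cnga2 stood at 94.6. A receptor thus held nearly all Olfr FPKM in a cell without detected Omp.

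The Early Immature Neuron cell D187 differed from the other 4. Its top receptor Olfr876 stood at 110 and held 45.5% of the Olfr FPKM, and Olfr877 (37854820 to 37857369), the next gene along the chromosome, followed at 75.5. The ratio of first to second was 1.45, against 26.4 to 2813 in the other 4 cells. This order rests on the 586-base piece: by its main entry Olfr876 stood at 62.8, below Olfr877, and neither gene then reached 100. D187 had Gap43 at 47.2, Gng8 at 29.2 and Omp at 8.80, with the receptor chaperone gene Rtp1 at 146 and the regulators Lhx2 at 507 and Ebf2 at 749.

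Below these, 4 members stood at an FPKM of 100 or more without leading their cell. Olfr968 was the second receptor of D223. Olfr983 (40091287 to 40093558) stood at 244.9 in the Late Immature Neuron cell D230, whose top receptor Olfr60 stood at 2152. D230 also held Cbr2 at 3764 and Cyp2g1 at 280, and the part of sustentacular RNA in its receptors was not tested. Olfr147 (38401720 to 38403829) stood at 230 in the Mature Neuron cell D232, 84.3% of the level of Olfr398, the top receptor at 273. Olfr878 stood at 226 in the Early Immature Neuron cell D197, where Olfr1104 led at 368.

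A further 9 members peaked between 10 and 100, and 6 of them did so in Early Immature Neuron cells of the range D316 to D434. Olfr957 stood at 87.1 in D318, Olfr27 at 49.1 in D373, Olfr967 at 75.9 and Olfr923 at 25.02 in D411, and Olfr951 at 32.7 and Olfr913 at 22.05 in D332. Each of these cells was led by a receptor of another chromosome at 247 to 377. Olfr877 peaked in D187, at 75.5, and stood at 14.2 in D215. Olfr1537 stood at 15.8 in D197, and Olfr870 at 30.5 in D240. The lowest 3 detected members were Olfr970 at 2.28 in D223 and Olfr857 at 1.97 and Olfr58 at 1.14 in D192, all in cells led by a chromosome 9 gene.

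**Figure D3:**
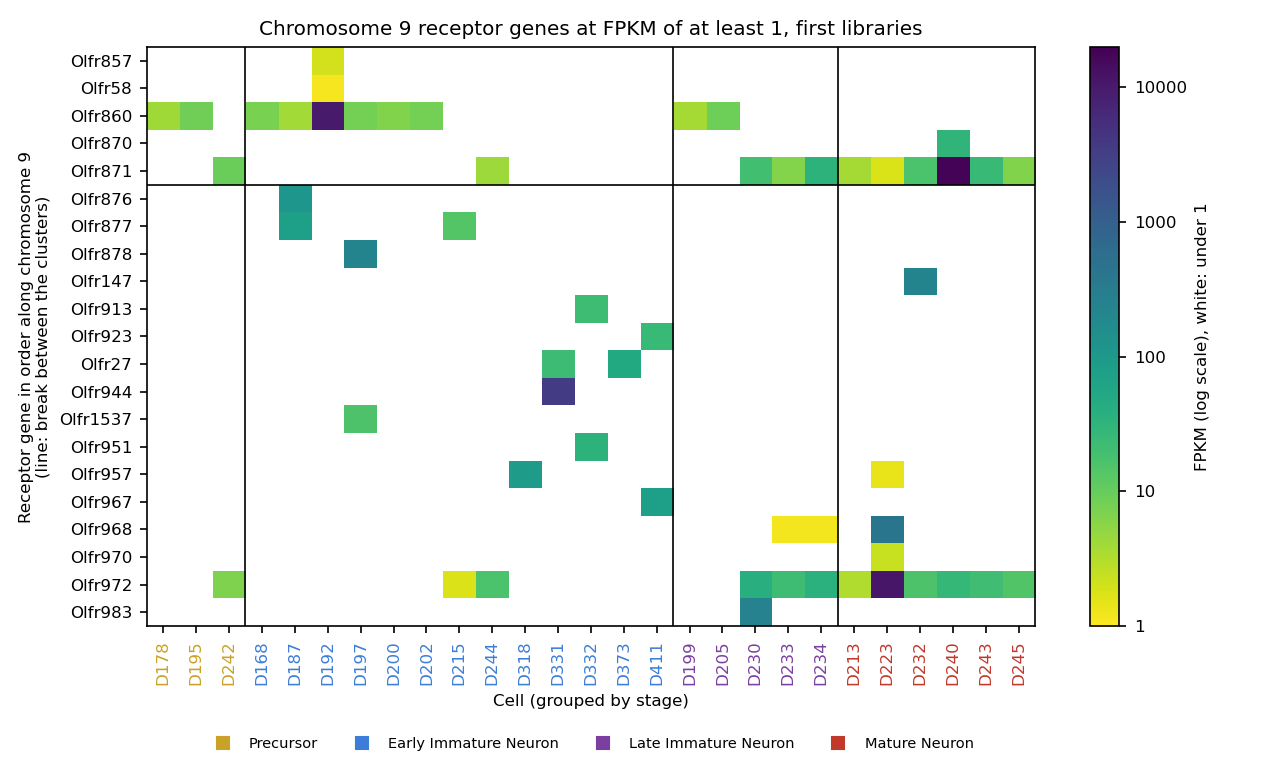
FPKM (log colour scale, white under 1) of the 21 chromosome 9 Olfr genes that reached 1, in order along the chromosome (rows), in the 27 cells that held any of them (columns, grouped and coloured by stage). Most rows have a single coloured cell, while Olfr860, Olfr871 and Olfr972 form bands of low values beside 1 dark cell each.

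Of the 21 members, 14 reached an FPKM of 1 in 1 cell only, 4 did so in 2 or 3 cells, and Olfr860, Olfr871 and Olfr972 did so in 10, 11 and 12 cells. These 3 are the members with the highest peaks. Their low values stayed within the number range of the cell that they led. Olfr871 was found in 11 of the 23 cells D213 to D274, at 18382 in D240 and at 1.76 to 32.5 in the other 10, and at exactly 0 in all cells of the other ranges. Olfr972 reached 1 in 12 cells of the same range, at 11159 in D223 and at 1.71 to 39.9 in 11 others, and was 0 outside it. These 12 were all the cells numbered D213 to D245, and Olfr871 reached 1 in each of them but D215. Neither gene reached 1 in any cell numbered D250 to D274. Olfr860 reached 1 in 10 of the 19 cells D168 to D205, at 9610 in D192 and at 3.79 to 9.03 in 9 others, and was 0 in the other ranges. The remaining cells of its range were 8 Progenitor cells and the Precursor cell D179, each with S100a8 and S100a9 above 100. The highest low values of Olfr871, Olfr972 and Olfr860 were 0.177%, 0.358% and 0.0940% of the peak of the gene.

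Only D215 held Olfr972 at an FPKM of 1 without Olfr871. Every other cell with Olfr871 or Olfr972 at 1 held both. D230 had them at 20.3 and 39.9, D234 at 32.5 and 35.2, D233 at 6.31 and 21.6, D243 at 25.1 and 20.5, and the Precursor cell D242 at 9.39 and 6.73. The 2 genes lie in different clusters, 19661 kb apart. In D240, led by Olfr871, Olfr972 stood at 26.8, and in D223, led by Olfr972, Olfr871 stood at 1.76, which is a single fragment. Low values were thus shared across stages within a number range, but not by Progenitor cells. The 3 Precursor cells with a chromosome 9 receptor were D178, D195 and D242. They held no member at an FPKM of 1 besides Olfr860 (4.18 and 8.42) or Olfr871 and Olfr972.

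In all, 56 values stood at an FPKM of 1 or more, and 32 of them were below 1% of the highest value of the gene. Of these 32, 30 belonged to Olfr860, Olfr871 and Olfr972, and all 32 lay in the number range of the highest cell. Without such values, members were found in 0 of 11 Progenitor, 0 of 9 Precursor, 9 of 27 Early Immature, 1 of 13 Late Immature and 3 of 25 Mature cells. If a top receptor was counted from an FPKM of 1, Olfr860 also led D205 (9.03), D195 (8.42) and D178 (4.18), and chromosome 9 led 8 of 77 cells. Where these low values came from was not tested.

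Among the 8 cells with a repeat, 11 first-library values were at least 1 but below 1% of the peak of the gene, and all 11 were listed at 0 in the repeat. Olfr972 stood at 39.9 in the first library of D230 and 0 in the repeat, Olfr871 at 25.1 and 0 in D243, and Olfr860 at 6.60 and 0 in D200. Of the 3 other first-library values of at least 1, 2 were found again. Olfr983 in D230 stood at 244.9 and 614, and Olfr877 in D187 at 75.5 and 95.4. The third, Olfr876 in D187, stood at 110 and 0. The first library and the repeat of D187 thus named different top receptors, Olfr876 and Olfr917, and had Olfr877 in common.

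Repeats also held members that the first libraries lacked. In the repeat of D187 Olfr917 (38662563 to 38665842) stood at 314 and Olfr875 (37772637 to 37774416) at 157, in that of D244 Olfr981 (40022352 to 40025528) at 145, and in that of D200 Olfr923 at 90.2. All 4 were listed at 0 in the first libraries of those cells. Olfr160, the receptor also known as M72, stood at 0.875 in the first library of D250, its highest over the first libraries, and at 14.3 in the repeat. Olfr917 was listed at 0 in all 85 first libraries and above 0 in 7 of 8 repeats, at 314 in that of D187 and at 0.660 to 3.46 in the other 6.

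**Figure D4:**
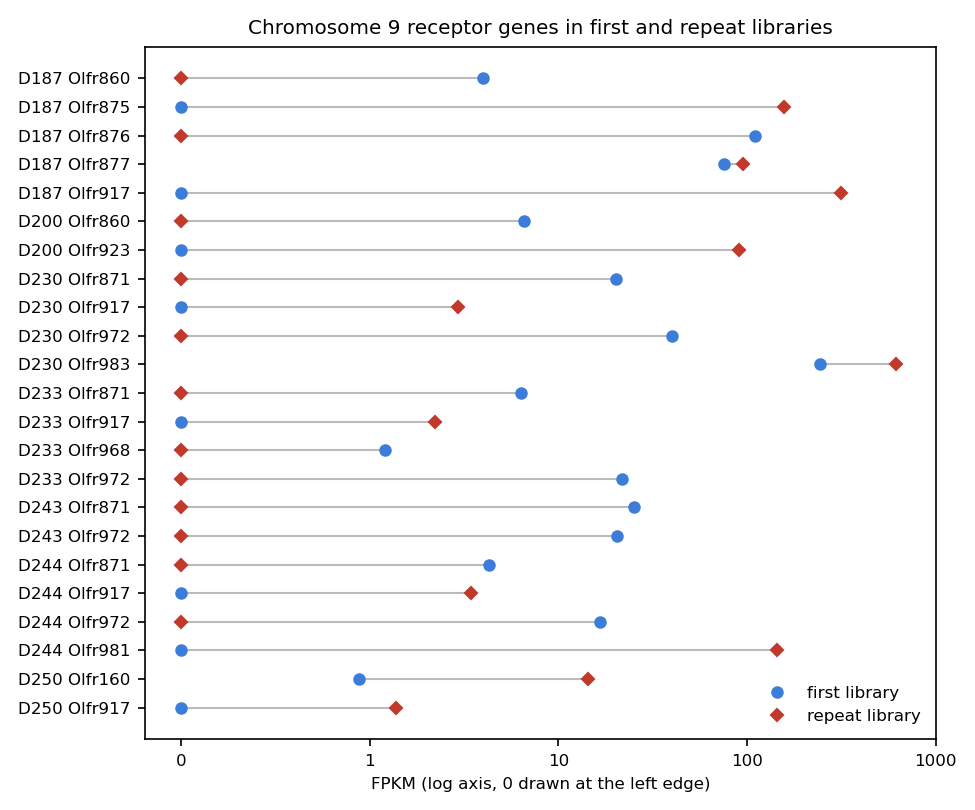
FPKM (log axis, with 0 drawn at the left) of each chromosome 9 Olfr gene that reached 1 in either library of a cell with a repeat; circles are first libraries, diamonds repeats, and each row is a gene in a cell. Only Olfr877 in D187 and Olfr983 in D230 stood above 1 in both, at 75.5 and 95.4 and at 244.9 and 614.

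Chromosome 9 receptors of the same cell were compared by their distance. At an FPKM of 1, 18 cells held 43 pairs of members, of which 20 lay in the same cluster (46.5%), and at an FPKM of 10, 11 cells held 17 pairs, of which 9 did (52.9%). Among all 210 pairs of the 21 detected members 130 lie in the same cluster (61.9%). With values under 1% of the peak of a gene left out, a count chosen after the data were seen, 8 cells held 15 pairs, all of the same cluster, 14 of them within 1 Mb and a median of 102 kb apart. This rule removes the low values of Olfr860, Olfr871 and Olfr972 that formed pairs across clusters. It keeps members whose peak is itself low, such as Olfr970 (1 fragment), Olfr857 and Olfr58, so the filter shapes that share. Pairs of a cell share their library, and 9 of the 15 come from D192 and D223, so all these shares are descriptions.

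These pairs differed in how much sequence the genes share. In the 4 cells where a member stood above 1000, each companion of its cluster at an FPKM of 1 was among its 4 nearest relatives in sequence. Likeness was measured as the share of the 25-base words in the GENCODE transcripts of the top gene that also occur in those of the companion. Of the other 130 members, Olfr870 shared most with Olfr871 (48.4%, 41.6 kb away), Olfr968 most with Olfr972 (23.5%, 102 kb) and Olfr970 next (10.1%, 53.6 kb). Olfr27 shared most with Olfr944 (13.2%, 88.1 kb). Not every close relative was found beside its leader: Olfr1537, next after Olfr27 in likeness to Olfr944 (10.2%, 21.2 kb), did not reach an FPKM of 1 in D331, and Olfr967, which followed Olfr970 in likeness to Olfr972 (4.88%), did not in D223. For Olfr860 the first 4 were Olfr58 (9.83%), Olfr859 (9.13%), Olfr862 (6.14%) and Olfr857 (4.94%), and those 4 were the members of that cluster found beside it in D192, at 1.14, 0.438, 0.958 and 1.97. Neighbouring members in general shared a median of 0.169% of the shorter one's words, and 57 of 129 neighbouring pairs shared none.

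The coding sequences show how alike such genes are. Olfr871 and Olfr870 differ at 23 of 936 coding bases (97.5% identity), and Olfr972 and Olfr968 at 48 of 945 (94.9%). The stretch of 90 bases with most differences is shown for each pair, from the GENCODE transcripts on mm10, with the differing bases in capitals.
Olfr871 from coding base 523, plus strand, chr9:20212873-20212962: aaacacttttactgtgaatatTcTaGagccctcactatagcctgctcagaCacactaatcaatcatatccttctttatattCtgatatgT
Olfr870 from coding base 523, minus strand, chr9:20170958-20171047: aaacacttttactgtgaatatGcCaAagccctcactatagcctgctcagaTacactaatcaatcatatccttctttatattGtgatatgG
Olfr972 from coding base 256, plus strand, chr9:39873532-39873621: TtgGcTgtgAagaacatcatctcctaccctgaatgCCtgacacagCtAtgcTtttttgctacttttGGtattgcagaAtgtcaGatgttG
Olfr968 from coding base 256, minus strand, chr9:39772454-39772543: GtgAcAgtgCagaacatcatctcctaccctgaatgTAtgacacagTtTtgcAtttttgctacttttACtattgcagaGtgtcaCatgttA
In these stretches Olfr871 and Olfr870 differ at 6 bases and Olfr972 and Olfr968 at 14, and 63 of 847 windows of 90 bases in the first pair hold no difference (34 of 856 in the second). The 90 bases are a length chosen for display, not that of a read or fragment. The longest runs shared by the transcripts were 144 bases for the first pair and 123 for the second. Olfr870 stood at 30.5, 0.166% of Olfr871, and reached 1 in no other cell. Olfr968 stood at 3.78% of Olfr972 in D223. How the deposited FPKM divide fragments between such genes was not tested, and their levels are uncertain to that extent.

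The other pairs shared hardly any sequence. Olfr876 and Olfr877, adjacent genes 50.9 kb apart, stood at 110 and 75.5 in D187 and shared 0.111% of words, with a longest common run of 29 bases. Olfr877 was there in the repeat of that cell and Olfr876 was not. Olfr923 and Olfr967 in D411 (25.02 and 75.9, 923 kb apart), Olfr913 and Olfr951 in D332 (22.05 and 32.7, 801 kb) and Olfr878 and Olfr1537 in D197 (226 and 15.8, 1319 kb) shared no word. All 4 of these cells were Early Immature Neuron cells.

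Zone genes were compared between cells led by chromosome 9 and other cells. Nqo1 and Acsm4 mark the dorsal zone and Ncam2 and Nrp2 the ventral zones. In the neuron stages Nqo1 reached an FPKM of 10 in 2 of 5 cells led by a chromosome 9 receptor (D240 at 1164 and D192 at 124) and in 8 of 55 led by another (14.5%, interval 6.495 to 26.7). Acsm4 did so in 1 of 5 (D192 at 108) and in 9 of 55 (16.4%). Ncam2 reached 10 in 0 of 5, with a highest value of 3.42, and in 21 of 55 (38.2%, 25.4 to 52.3). Nrp2 did so in 0 of 5, with a highest value of 2.93, and in 22 of 55 (40%, 27.0 to 54.1). The interval of 0 of 5 reaches 52.2%, and no test between these cells was made. Both leaders of the first cluster, Olfr860 and Olfr871, were in cells with Nqo1, but Acsm4 was listed at 0 in D240, the cell of Olfr871. D187, D223 and D331 had Nqo1 at 0.335, 1.22 and 0.

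The summed FPKM of 16 odorant transduction genes ranged from 551 to 15098 with a median of 9224 over the 5 cells, and had a median of 9496 over 56 cells led by others. For the 14 listed regulators of receptor choice the medians were 2112 and 1299, and the range of the 5 cells, 1349 to 2935, lay within that of the others, 469 to 3269. Emx2 differed among the 5, at 596 in D331, 49.8 in D192, 19.9 in D187, 1.77 in D240 and 0 in D223. Of other cell types, the 3 horizontal basal cell markers were at 0 in all 5 cells and the 7 blood and immune markers summed to at most 0.935. The 7 sustentacular markers summed to 0.842 to 619 (median 4.19), against a median of 28.7 over the others, with the highest in D240.

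The authors' deposited table of receptor and cell pairs held 134 pairs, of which 15 named a chromosome 9 receptor. They covered 14 receptors in 13 cells, and by that table chromosome 9 led 4 of 59 cells (6.78%). The table named 64 cells and held no chromosome 9 pair under an FPKM of 10. Its share is therefore not on the same terms as the 5 of 61 cells above.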

How the data were processed

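Per the submitters' processing notes, the 93 single-cell libraries were processed on mm10. The tools named there, without settings, are TopHat2 2.0.14 with Cufflinks 2.2.1, and CASAVA 1.8.2, cutadapt 1.2.1 and Trim Galore. The authors deposited FPKM per annotation entry, a second table that pairs receptors and cells, with FPKM and a Pseudotime score (that score was not used here), and an annotation with positions (other values) that mixes annotated genes and assembled transcripts.

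Members were Olfr symbols on chromosome 9, with the highest entry per symbol, in the first library of each of 85 cells. Members and lists were chosen with earlier results of these data known. A gene counted as detected at an FPKM of at least 1, and levels of 10, 100 and 1000 and 1% of the highest value of the gene are given beside it. Clusters were split at gaps over 1 Mb. Named genes were all members at 100 or more with all their values of at least 1, those at 10 to 100, those in 4 or more cells, and the lowest and highest of the rest. Members at an FPKM under 1 and members seen in repeats were named after their values were seen. Summed FPKM was taken as log2(sum + 1). No p-value was computed. The value of 1 fragment was recovered from single-exon genes of 800 to 4000 bases, where a median of 100% of low values (at least 97.7% in each library) came out whole within 0.1 below 5.5 fragments, and the step was recovered within 5% in 4 of 4 libraries simulated with 2232 genes each. Promoter windows came from RefSeq, and transcripts from GENCODE vM21. Alternatives changed the entry rule, level, cells, repeats, pseudocount and scaling. Python 3.11.15, pandas 2.3.3, NumPy 2.4.6, SciPy 1.17.1 and Matplotlib 3.10.9 were used. The stages are single samples, and the precision of each share is limited by the number of cells. A listed marker gene is not reported here.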

Additional observations from a re-analysis of the deposited data

Results flagged for a closer look

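Among the 9 Precursor cells, D242 held 2 chromosome 9 receptors that reached an FPKM of 1, and the other 8 held 0 or 1. The gap of D242 to the next cells was 0.5 of the whole range, above Dixon's 95% critical value of 0.493 for 9 values. Chance flags about 1 in 20 groups of continuous values, but these are tied whole numbers, for which a single cell at 2 beside cells at 1 always gives 0.5, so the critical value does not apply as such. The summed chromosome 9 FPKM of D242 (16.6) was the highest of the same cells, with a ratio of 0.448, under the critical value. The 2 genes were Olfr871 (9.39) and Olfr972 (6.73), both below 1% of their highest values, in cells of the same number range.

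The repeat libraries, which enter no comparison between stages, held chromosome 9 receptors that the first library of the same cell lacked. Olfr917 stood at 314 and Olfr875 at 157 in the repeat of D187, Olfr981 at 145 in that of D244, Olfr923 at 90.2 in that of D200 and Olfr160 at 14.3 in that of D250. Why the libraries of a cell differ was not tested.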

How the results depend on the processing

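For 14 results, 106 values under alternatives were computed, of which 93 stayed within the spread over cells, the binomial interval or 1.5 times a count, which are wide here, and 13 moved beyond. With annotated entries only, 8 members were detected in place of 21, and members were found in 11.1% of Precursor and of Early Immature Neuron cells, in 23.1% of Late Immature and in 24% of Mature cells. The order of the neuron stages was then the opposite of that reported, as it was for the mean summed level (0.31, 1.31 and 1.96). Within cells D316 to D434 only 7 members were detected, and the share of cells with a member was 0% for Precursor, Late Immature Neuron and Mature Neuron and 26.3% for Early Immature Neuron, and the mean summed level of Late Immature and Mature Neuron cells was 0. The Precursor share was 88.9% at any FPKM above 0, 0% at an FPKM of 10 and 0% with the 1% rule, which also gave 7.69% for Late Immature and 12% for Mature cells. The mean summed level of Progenitor cells was -2.98 on the log2 scale with a pseudocount of 0.1. Pairs in the same cluster made up 100% with the 1% rule, an alternative chosen after the data were seen. Using the second library of the 8 repeated cells, 24 members were detected. Cells led by chromosome 9 made up 3.70% to 10.4% over all alternatives. A left-out replicate has no meaning here, since each stage is 1 sample, and no paired analysis was possible because the labels pair no cells across stages. Depth limits low values: an FPKM of 1 stood for under 1 fragment per kilobase in the shallowest library.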
